A study of Mus musculus with 4 samples.

Results

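Interleukins are secreted proteins by which immune, epithelial and stromal cells signal to one another, and each acts on cells that carry the matching receptor chains. Receptor chains are shared within families. IL-1 and the IL-36 ligands use the accessory protein IL-1RAP while IL-18 has an accessory chain of its own. Most IL-6 family ligands signal through gp130, and IL-2 family ligands through the common gamma chain. IL-12 and IL-23 share both a subunit and a receptor chain. In the allergic lung these families are known for fever and neutrophil-recruiting signals (IL-1, IL-6, IL-17) and for the upkeep of lymphocytes (IL-2 family), beside the type 2 cytokines that drive the disease.

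The genes described here are those whose symbol begins with Il and a digit in both deposited tables, after leaving out IL-22, IL-10 and their receptors, the type 2 cytokines and alarmins with their receptors, and the IL-1 receptor antagonist and decoy. This gave 66 of 23284 genes: 33 ligands, 31 receptor chains, the IL-18 binding protein Il18bp, and Il4i1, an enzyme that only carries the name. The IL-1 family had 16 members, the IL-6 family 10, the IL-17 and IL-23/IL-12 family 15 and the IL-2 family 12, and 13 members belonged to none of these. Because the rule takes symbols, the lambda interferons are included under their older names Il28a and Il28b, with their receptor Il28ra (now Ifnlr1).

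RNA came from whole lungs of C57BL/6 mice, and there were 4 libraries, 1 for each group. IL22-/- mice and wild-type mice were exposed to house dust mite (HDM), a common inhaled allergen, for sensitization and then challenge. Lung RNA was prepared 48 h after HDM was last given. The other libraries are of wild-type mice 24 h after recombinant IL-22 or phosphate-buffered saline (PBS) was put into the trachea. The labels give neither the knockout allele, the ages, the doses, nor how many animals went into a library. With 1 library per group no difference has a replicate check, and no p-value is given. Values are FPKM, fragment counts scaled by transcript length and sequencing depth, which can be set side by side between genes. The tables of the HDM pair and of the IL-22 and PBS pair may have been scaled separately, so levels across them stand beside each other without a test. Differences are of log2(FPKM + 1) within a pair. A gene was measured in a pair if its mean FPKM there was at least 1, and it was called higher or lower where the difference was at least 1 in size.

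By the steps of the low values, the libraries held an estimated 19.99 to 28.88 M reads. Il22 itself was listed at 0 in the knockout HDM library, against 0.362 FPKM in its wild-type counterpart. It was also listed at 0 in the IL-22 and PBS libraries, so a value of 0 does not tell the genotypes apart. Markers of monocytes and interstitial macrophages summed to 248 FPKM in the knockout HDM library and 541 in the wild-type HDM library over 10 genes, and to 498 with IL-22 and 299.8 with PBS. T cell markers summed to 31.3, 47.9, 36.5 and 35.2 FPKM in the same order over 8 genes. Fat cell markers (24.1, 59.4, 266 and 127 FPKM) and heart muscle markers (33.8, 112, 309 and 209 FPKM) also differed between the libraries of each pair. In whole lung, fewer cells of a type and less RNA per cell cannot be told apart.

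Of the 66 genes, 2 were lower and none higher in the knockout HDM library than in the wild-type HDM library, and none was called in the IL-22 library against the PBS library. Those lower were Il4i1 and Il18bp. Il6 was also lower by the same size but stood just under the level filter. Of the 66 genes 31 were measured in the HDM pair, and 2.97% of all 13285 measured genes were called there (2.42% lower and 0.549% higher). In the other pair 30 were measured, and 0.786% of 13233 genes were called (0.597% higher and 0.189% lower). The count of 2 among 31 is small, and members with low levels could only pass the filter through the library in which they were high, as Il4i1 did. The median difference of the measured members was -0.14 in the HDM pair, where all genes had a median of 0.03, and -0.01 in the IL-22 and PBS pair, where all genes had 0.04.

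The sequence before a RefSeq start site is shown for the 3 members with the largest differences. It places them in the genome and shows which known binding motifs these windows hold. Each is the 250 bases before the start from RefSeq, build GRCm38.p6, the assembly called mm10. For Il4i1 and Il18bp the window lies within the gene span given below, and any start further upstream was not searched. Capitals mark a match to the NF-kB motif, the target of the main transcription factor of inflammatory signalling. The windows are chr7:44836038-44836287 (plus strand) for Il4i1, chr7:102018233-102018482 (minus strand) for Il18bp and chr5:30012864-30013113 (plus strand) for Il6.
Il4i1: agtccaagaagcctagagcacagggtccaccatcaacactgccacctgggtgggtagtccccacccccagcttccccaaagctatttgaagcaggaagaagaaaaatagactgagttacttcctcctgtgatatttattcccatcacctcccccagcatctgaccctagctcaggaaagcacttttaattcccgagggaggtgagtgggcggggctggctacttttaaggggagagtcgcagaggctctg
Il18bp: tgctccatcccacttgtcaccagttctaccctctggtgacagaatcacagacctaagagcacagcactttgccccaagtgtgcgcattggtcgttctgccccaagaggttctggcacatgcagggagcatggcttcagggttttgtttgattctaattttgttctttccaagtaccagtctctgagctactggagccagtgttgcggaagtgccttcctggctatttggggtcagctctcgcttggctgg
Il6: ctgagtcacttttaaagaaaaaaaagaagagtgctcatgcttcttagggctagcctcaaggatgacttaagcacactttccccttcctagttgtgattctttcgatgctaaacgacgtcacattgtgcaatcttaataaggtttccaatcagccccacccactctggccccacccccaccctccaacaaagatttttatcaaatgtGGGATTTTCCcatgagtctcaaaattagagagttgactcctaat

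The motifs searched on both strands were TTCNNNGAA, bound by STAT proteins such as the STAT3 that IL-6 and IL-22 activate, and the NF-kB motif. Il6 held the NF-kB motif at positions -44 to -35 from the start and no STAT motif, and Il4i1 and Il18bp held neither in this window. Over all 32851 promoter windows of this length, 7.02% held the STAT motif and 7.25% the NF-kB motif. Of 61 windows of 51 members, 7 held the STAT motif and 5 the NF-kB motif. Not all 66 members entered this count. Windows on chromosome 18, where Il17b lies, were left out of it but kept among all promoters. That accounts for Il17b alone, and the other absent members had no usable window in the set. A match is a run of letters and not a site shown to be bound.

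Il4i1 encodes a secreted oxidase of aromatic amino acids that antigen-presenting cells make. It had 0.0929 FPKM in the knockout HDM library and 4.60 FPKM in the wild-type HDM library. With IL-22 it had 0.0685 FPKM and with PBS 0.104 FPKM. The wild-type HDM library therefore stood alone, and the other 3 were near the limit of detection. The difference between the HDM libraries was -2.36, and 48 of the 13285 measured genes had a lower one. An estimated 5 reads in the knockout against 212 in wild type give a depth-adjusted ratio of 0.0216. Its exact 95% interval, 0.00693 to 0.0511, covers counting error only and compares these libraries, not the genotypes. The estimated reads of Il4i1 were not near whole numbers, so they are approximate. Those of other members, among them Il6, Il9r, Il2 and Il27, are approximate in the same way. The exons of Il4i1 (chromosome 7, 44816387 to 44840809) overlap those of Nup62, on the same strand, and of Tbc1d17 and Atf5, on the other, and the sources used here do not say whether the libraries kept strand. The HDM levels of Nup62 were 9.52 FPKM (knockout) and 11.0 FPKM (wild type), a difference of -0.19. Those of Tbc1d17 were 13.2 FPKM (knockout) and 9.78 FPKM (wild type), a difference of 0.40, and those of Atf5 were 50.2 FPKM (knockout) and 39.2 FPKM (wild type), a difference of 0.35. None of these genes was called. Monocyte and macrophage markers were also lower in the knockout HDM library, with 4 of 10 called lower (C1qa, C1qb, C1qc and Mrc1) and a median difference of -0.85. Eosinophil markers summed to 0.339 FPKM in the knockout and 4.13 FPKM in wild type after HDM, and to 1.06 FPKM with IL-22 and 0.768 FPKM with PBS, so they too were highest in the wild-type HDM library. The only eosinophil marker measured in the HDM pair, Prg2, was called lower (0.173 against 2.83 FPKM, -1.71). It passed the level filter only through the wild-type library and made up most of the wild-type sum. Itgax, an integrin of alveolar macrophages and dendritic cells, was called lower (-1.61). It stood on the alveolar macrophage list, whose 5 genes had a median of -0.08, with 2 above 0. Of 6 dendritic cell markers 5 had values below 0 without a call, and Clec9a was above 0 (0.67). The part of these cell types in the values of Il4i1, Il18bp and Il6 was not tested.

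**Figure D1:**
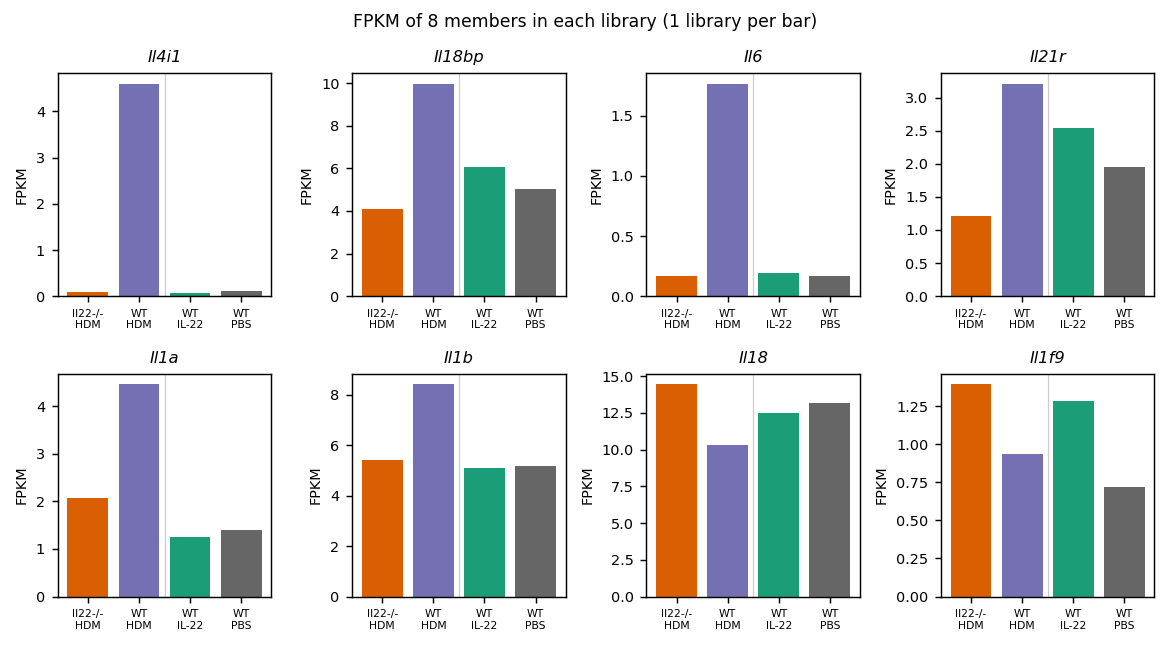
FPKM of 8 members in each library, 1 library per bar, with the HDM pair left of the grey line and the IL-22 and PBS pair right of it. Il4i1 and Il6 are high in the wild-type HDM library alone (4.60 and 1.76 FPKM), Il18bp, Il21r, Il1a and Il1b are lower in the knockout HDM library than in the wild-type HDM library, and Il18 and Il1f9 are higher there without passing the size rule.

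Among the IL-1 family ligands, the fever cytokines Il1a and Il1b had their highest level in the wild-type HDM library. Il1a was at 2.06 FPKM in the knockout and 4.47 FPKM in wild type, and at 1.25 FPKM with IL-22 and 1.41 FPKM with PBS. Its difference of -0.84 in the HDM pair fell short of the size rule with the pseudocount of 1, although the estimated 100 against 198 reads give a ratio of 0.462 (0.359 to 0.590). Il1b was at 5.43 and 8.43 FPKM in the HDM pair, a difference of -0.55, and at 5.10 and 5.20 FPKM with IL-22 and PBS. Il18, a cytokine stored in epithelium and macrophages that prompts interferon gamma, had the opposite order, with 14.5 FPKM in knockout lung against 10.3 FPKM in wild type (0.45). With IL-22 and PBS Il18 was at 12.5 and 13.2 FPKM. Il18 was thus lowest in the library where Il1a and Il1b were highest.

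Il18bp, the soluble protein that captures IL-18 and blocks it, was called lower. It had 4.11 FPKM in the knockout HDM library and 9.96 FPKM in the wild-type HDM library, against 6.08 FPKM with IL-22 and 5.04 FPKM with PBS. The difference of -1.10 had 264 of all measured genes below it. The wild-type HDM library was again highest, and the value of the knockout HDM library was below that of the PBS library, in the other table. The ratio of Il18bp to its ligand Il18, both per length, can be read from these levels: Il18 exceeded Il18bp in every library but was close to it in the wild-type HDM library (10.3 against 9.96 FPKM). The exons of Il18bp (chromosome 7, 102014885 to 102018690) overlap those of Numa1 on the other strand. Numa1 had HDM levels of 17.5 FPKM (knockout) and 16.3 FPKM (wild type), a difference of 0.10.

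The IL-36 ligand Il1f9, an IL-1 relative made by epithelium, was the only one of its group with a value above 0. It had 1.40 FPKM in the knockout and 0.936 FPKM in wild type after HDM, and 1.29 FPKM with IL-22 and 0.723 FPKM with PBS. The difference with IL-22 was 0.41, the highest among the measured members of that pair. The estimated 54 against 21 reads give a ratio of 1.78 (1.06 to 3.10). Il1f9 passed the level filter narrowly and only through the IL-22 library. The interval makes no allowance for its choice as the highest member. Il1f5, Il1f6, Il1f8 and Il1f10 were listed at 0 in all 4 libraries. The IL-36 receptor Il1rl2 was at 2.89 FPKM in the knockout and 3.27 FPKM in wild type, and at 3.70 FPKM with IL-22 and 3.0 FPKM with PBS.

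The IL-18 receptor chain Il18r1 was the highest of the IL-1 family, at 35.0 and 44.3 FPKM in the knockout and wild-type HDM libraries and 37.8 and 35.1 FPKM with IL-22 and PBS. Its partner chain Il18rap was far lower, at 1.12 and 0.824 FPKM and at 0.697 and 0.591 FPKM. The signalling receptor Il1r1 was at 10.2 and 12.6 FPKM in the HDM pair and at 7.51 and 7.94 FPKM in the other. The shared accessory protein Il1rap was at 6.99 and 6.28 FPKM and at 5.22 and 4.78 FPKM. No receptor of the family was called in either pair, and the 9 measured family members had a median difference of -0.28 in the HDM pair and 0.10 in the IL-22 and PBS pair, the second being 0.0037 when the libraries were scaled by their median ratio. Of the 16 genes outside the interleukins that relay IL-1 signals and were measured, none was called in either pair. Lowest in difference in the HDM pair was the inflammatory caspase Casp4 (10.2 against 19.5 FPKM, -0.87). Casp1, the inflammatory caspase that cuts pro-IL-1beta and pro-IL-18, followed (4.07 against 7.87 FPKM, -0.81). Of the 16 genes, 5 were above 0 in that pair, the highest being Sigirr (7.54 against 5.83 FPKM, 0.32).

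**Figure D2:**
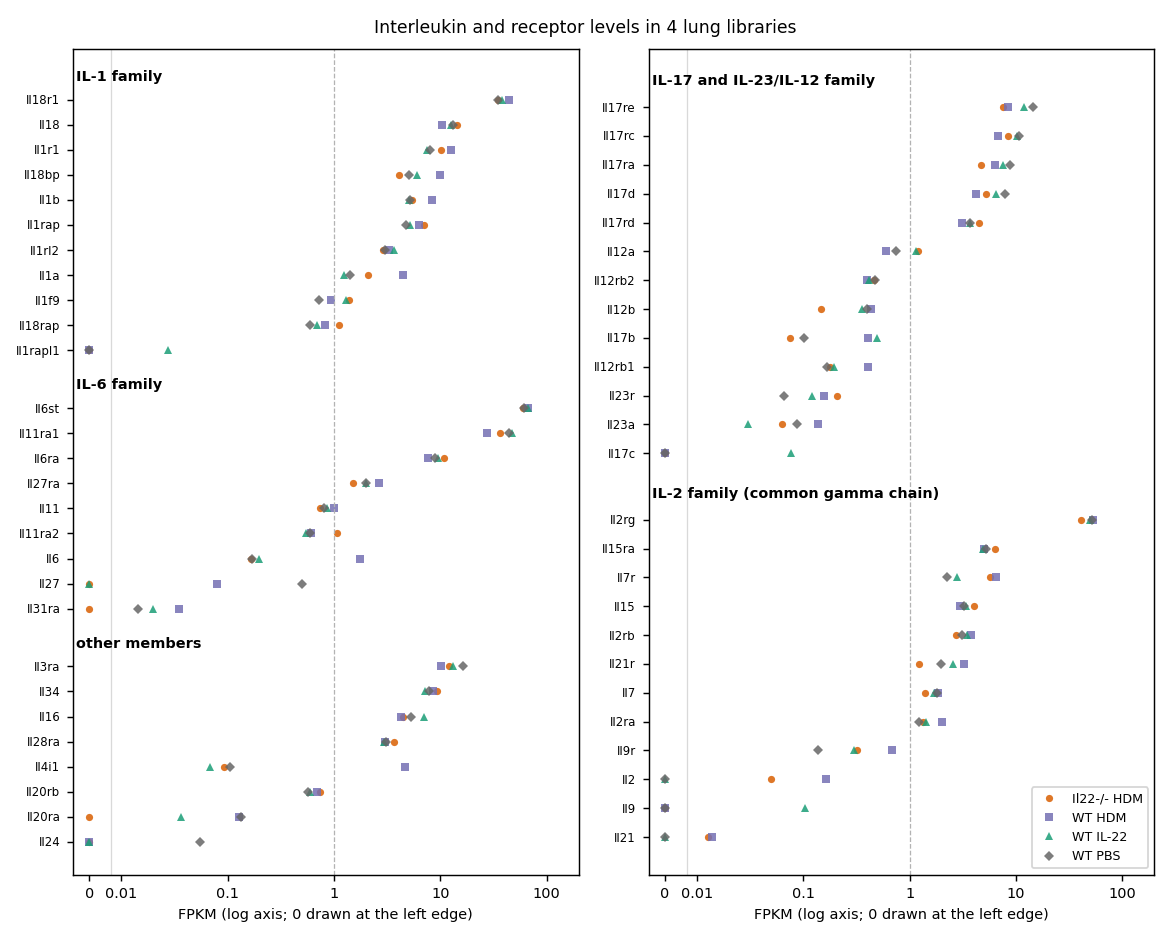
FPKM of the members that had a value above 0 in at least 1 of the 4 libraries, on a log axis with 0 drawn at the left edge. Symbols stand for libraries and the dashed line marks 1 FPKM. The receptor chains Il6st, Il2rg, Il11ra1 and Il18r1 have the highest mean levels of all members, while many ligands lie below the line.

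Il6, an inducer of the acute phase response, had 0.165 FPKM in the knockout HDM library and 1.76 FPKM in the wild-type HDM library. It had 0.195 FPKM with IL-22 and 0.169 FPKM with PBS. As for Il4i1, the wild-type HDM library was high and the other 3 were close together. The difference of -1.25 meets the size rule, but the mean of the pair was just under 1 FPKM, so Il6 is not among the 2 called. An estimated 4 reads against 41 give a ratio of 0.0892 with an interval of 0.0232 to 0.246. With IL-22 and PBS there were an estimated 5 and 3 reads, a ratio of 1.15 (0.224 to 7.43), and no difference was detectable at this depth.

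The IL-6 family receptors were among the most abundant members. Il6st, which encodes gp130, was the highest of all 66 genes on average, at 59.3 FPKM in the knockout and 66.2 FPKM in wild type after HDM, and at 66.04 FPKM with IL-22 and 60.6 FPKM with PBS. Il6ra, the chain that binds IL-6, was at 10.9 and 7.71 FPKM in the HDM pair (0.45) and at 9.45 and 8.85 FPKM in the other. Il11ra1, the receptor of IL-11, was at 36.2 and 27.3 FPKM (0.39) and at 46.7 and 44.6 FPKM. Il6ra and Il11ra1 were thus lowest in the wild-type HDM library, where Il6 and Il6st were highest. This ranking crosses tables that may not share a scale. Il11ra1 has near-identical copies, listed as Il11ra2, between which reads can be split.

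Il27ra, a receptor chain of T and NK cells, was at 1.52 FPKM in the knockout and 2.64 FPKM in wild type (-0.53), and at 2.0 and 1.99 FPKM with IL-22 and PBS. Its ligand IL-27 is built from the product of Il27 and that of Ebi3. Il27 was listed at 0 in the knockout and had 0.0797 FPKM in wild type after HDM, and it was listed at 0 with IL-22 and had 0.498 FPKM, an estimated 8 reads, with PBS. Ebi3, which lies outside the member rule, was at 11.4 FPKM with IL-22 and 3.56 FPKM with PBS, a difference of 1.44, and was called higher, as were 0.597% of all measured genes. After HDM Ebi3 was at 2.23 and 2.81 FPKM in the knockout and wild type. The partner subunits of IL-27 therefore stood in opposite order in the IL-22 and PBS libraries, on few reads for Il27. Monocyte and macrophage markers were also higher in that IL-22 library (median 0.58, 2 of 10 called higher), and their part in the Ebi3 value was not tested. Of the 13 measured IL-6 pathway genes Ebi3 was the only one called in that pair, and none of 12 was called in the HDM pair. The lowest difference there was that of Pim1, a kinase induced by STAT3 (9.80 against 18.3 FPKM, -0.84). Next was Osmr, the oncostatin M receptor (14.1 against 23.1 FPKM, -0.67). In the same pair 5 of the 12 were above 0, the highest being Cntfr (4.53 against 2.60 FPKM, 0.62).

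Il11 was at 0.731 and 0.998 FPKM in the knockout and wild-type HDM libraries and at 0.866 and 0.797 FPKM with IL-22 and PBS, below the filter in each pair. Il31 was listed at 0 throughout, and its receptor chain Il31ra had at most an estimated 3 reads. The 4 measured members of the IL-6 family had a median difference of 0.12 in the HDM pair and 0.08 in the other. The direction in the HDM pair did not hold across filters, with a median of -0.11 without a filter and 0.39 at a mean of 5 FPKM.

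The signature cytokines Il17a and Il17f, which helper T cells of the type 17 class make, were listed at 0 in all 4 libraries, those after HDM included. For Il17a the 3 counts that a count of 0 allows correspond to 0.113 FPKM in the knockout, 0.124 FPKM in wild type after HDM, 0.107 FPKM with IL-22 and 0.155 FPKM with PBS. Il17c, an epithelial member, had an estimated 1 read, in the IL-22 library. Il17b had an estimated 1 read in the knockout and 5 in wild type after HDM, and 7 with IL-22 and 1 with PBS, with intervals of the ratio that span 1 in both pairs (0.00387 to 1.63 and 0.622 to 218). Il17d was the only measured ligand of the group. It had 5.24 and 4.16 FPKM in the HDM pair (0.27) and 6.54 and 7.79 FPKM with IL-22 and PBS (-0.22).

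Transcripts of the IL-17 receptors were present in each library while those of their main ligands were not detected. Il17ra, the chain shared by the family, was at 4.64 FPKM in the knockout and 6.37 FPKM in wild type (-0.39), and at 7.51 FPKM with IL-22 and 8.72 FPKM with PBS. Il17rc, its partner for IL-17A and IL-17F, was at 8.41 and 6.74 FPKM (0.28) and at 10.2 and 10.6 FPKM. Il17re, the epithelial receptor of IL-17C, was the highest of the group on average, at 7.59 and 8.36 FPKM after HDM and at 11.8 and 14.3 FPKM with IL-22 and PBS. Il17rd was at 4.50 and 3.07 FPKM (0.43) and at 3.68 and 3.72 FPKM. Il17re, Il17rc, Il17ra and Il17d were each lower in both HDM libraries than in the PBS library, a comparison across tables that may not share a scale.

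The subunits of IL-12 and IL-23 were low. Il12a, the subunit that IL-12 does not share with IL-23, was at 1.20 FPKM in the knockout and 0.598 FPKM in wild type after HDM, and at 1.15 and 0.747 FPKM with IL-22 and PBS. Il12b, the subunit shared with IL-23, was at 0.146 and 0.434 FPKM in the HDM pair and at 0.356 and 0.400 FPKM in the other. The partner subunits thus stood in opposite order in the HDM pair, with all values near or below 1 FPKM. Il23a had an estimated 2 and 4 reads after HDM and 1 and 2 reads with IL-22 and PBS. The shared receptor chain Il12rb1 had 13 and 27 estimated reads in the HDM pair, a ratio of 0.440 (0.209 to 0.883), and 15 and 9 in the other. Il23r had 13 and 9 reads after HDM, a ratio of 1.32 (0.522 to 3.50), and 8 and 3 with IL-22 and PBS. The 5 measured members of the IL-17 and IL-23/IL-12 family had a median difference of 0.27 in the HDM pair and -0.19 in the IL-22 and PBS pair. The direction in the HDM pair turned to -0.0184 without a filter and -0.12 at a mean of 5 FPKM, and the median of the other pair was -0.046 without a filter.

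Genes downstream of this family included several that were called. Of 10 measured genes on the list, which was chosen with earlier results of these data known, 4 were lower in the knockout HDM library and none higher, where 2.42% of all measured genes were lower. They were the neutrophil chemokines Cxcl1 (1.08 against 11.5 FPKM, -2.58) and Cxcl5 (0.252 against 6.03 FPKM, -2.49), Lcn2, an iron-scavenging defence protein (284 against 1663 FPKM, -2.55), and Ccl20, the ligand of CCR6 (1.29 against 4.95 FPKM, -1.38). Cxcl5 passed the level filter only through the wild-type library. These genes also respond to IL-1 and other signals, and Il17a and Il17f were listed at 0 in all 4 libraries. The part of any signal in these values, IL-22 included, was not tested. Of 6 neutrophil markers, S100a8 and S100a9 were called higher and Retnlg lower in the knockout HDM library, and the part of cell numbers in the chemokine values was not tested. None of the 9 measured was called with IL-22 against PBS. The highest values there were 0.73 for Rora, a transcription factor of innate lymphoid and type 17 cells, and 0.70 for Nfkbiz, a co-activator induced by IL-1 and IL-17. Ccl20 (0.54) and Lcn2 (0.34) were among those measured. Cxcl1 (0.927 against 0.669 FPKM) and Cxcl5 (0.0714 against 0.0344 FPKM) were below the level filter in that pair and could not be called.

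**Figure D3:**
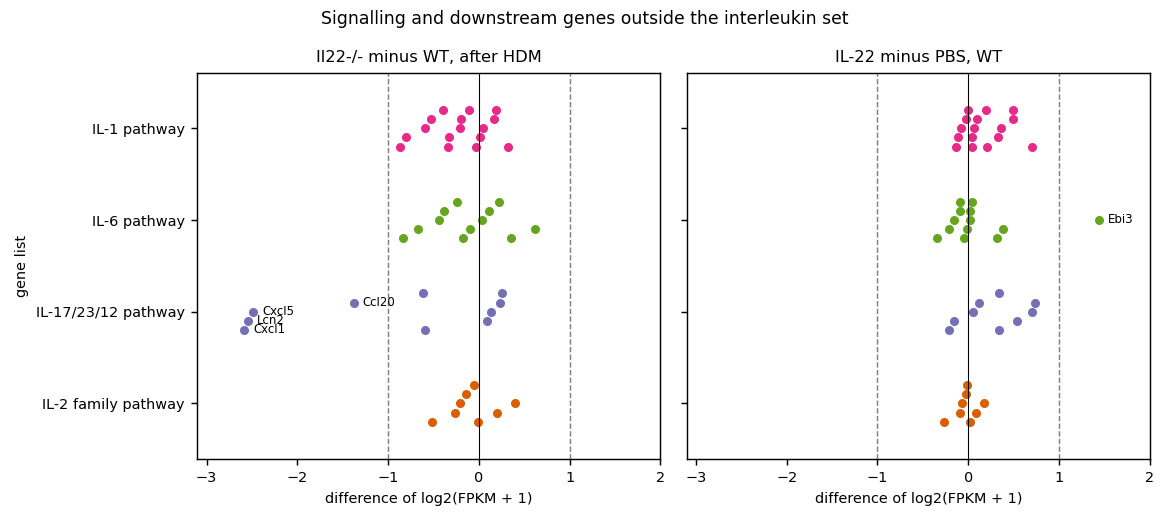
Differences of log2(FPKM + 1) for measured genes of 4 lists of signalling and downstream genes outside the interleukin set, with the Il22-/- minus wild-type HDM difference left and the IL-22 minus PBS difference right; dashed lines mark the size rule and called genes are named. Cxcl1, Lcn2, Cxcl5 and Ccl20 lie beyond -1 in the HDM pair and Ebi3 beyond 1 in the IL-22 and PBS pair.

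The IL-2 family was represented by its receptors. The common gamma chain Il2rg was the second most abundant member, at 40.8 FPKM in the knockout and 53.2 FPKM in wild type after HDM (-0.37), and at 50.1 FPKM with IL-22 and 51.5 FPKM with PBS. Il2rb, shared by IL-2 and IL-15, was at 2.71 and 3.73 FPKM (-0.35) and at 3.42 and 3.12 FPKM. Il2ra, the high-affinity IL-2 chain of activated and regulatory T cells, was at 1.33 and 2.02 FPKM (-0.37) and at 1.42 and 1.22 FPKM. Each of the 3 was highest in the wild-type HDM library, by less than the size rule.

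Il21r, the IL-21 receptor of B, T and NK cells, had the lowest difference of the family. It had 1.22 FPKM in the knockout and 3.21 FPKM in wild type after HDM, and 2.54 FPKM with IL-22 and 1.95 FPKM with PBS. The difference of -0.92 missed the size rule, and 76 against 184 estimated reads give a ratio of 0.378 (0.285 to 0.496). The knockout HDM library was the lowest of the 4. T cell markers had a median difference of -0.58 in the HDM pair over 7 measured genes, B cell markers -0.04 over 5 and NK cell markers 0.28 over 6, and the part of cell numbers in the receptor values was not tested. Il7r, the IL-7 receptor of naive and memory T cells and innate lymphoid cells, was at 5.66 and 6.52 FPKM after HDM but at 2.77 and 2.26 FPKM with IL-22 and PBS. Both HDM libraries were above both unchallenged libraries, again across tables.

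Il15 and its receptor Il15ra, which presents IL-15 to neighbouring cells, had higher values in the knockout. Il15 was at 4.02 and 2.94 FPKM (0.35) and Il15ra at 6.32 and 4.99 FPKM (0.29) in the HDM pair. With IL-22 and PBS they were at 3.38 and 3.21 FPKM and at 4.93 and 5.18 FPKM. Il7, a survival factor of lymphocytes from stroma, was at 1.38 and 1.86 FPKM (-0.27) and at 1.69 and 1.82 FPKM. Il9r, the receptor of the mast cell growth factor IL-9, had 13 and 26 estimated reads after HDM, a ratio of 0.457 (0.216 to 0.922), and 13 and 4 with IL-22 and PBS (0.695 to 9.47). Il2, Il9 and Il21 had at most an estimated 4 reads in any library. The 8 measured family members had a median difference of -0.31 in the HDM pair and 0.08 in the other, against -0.18 and -0.0496 at a mean of 5 FPKM. None of the 8 listed signalling genes was called in either pair. Their HDM differences ran from -0.52 for Cish, a feedback inhibitor induced by STAT5, to 0.40 for Tslp, a cytokine that uses Il7r as a receptor chain.

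The remaining members belong to no shared-receptor family of those above. Il34, a ligand of the macrophage growth factor receptor CSF1R, was at 9.32 FPKM in the knockout and 8.51 FPKM in wild type after HDM, and at 7.19 and 7.83 FPKM with IL-22 and PBS. Il3ra was at 12.1 and 10.1 FPKM (0.25) and at 13.2 and 16.3 FPKM (-0.28, the lowest of the measured members in the IL-22 and PBS pair). Il16, a precursor of a CD4 ligand, was at 4.48 and 4.28 FPKM and at 7.08 and 5.24 FPKM (0.37). Il28ra, the lambda interferon receptor, was at 3.65 and 3.03 FPKM and at 2.96 and 3.10 FPKM, while its ligands Il28a and Il28b were listed at 0 in all 4 libraries. None of these genes except Il4i1 was called.

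**Figure D4:**
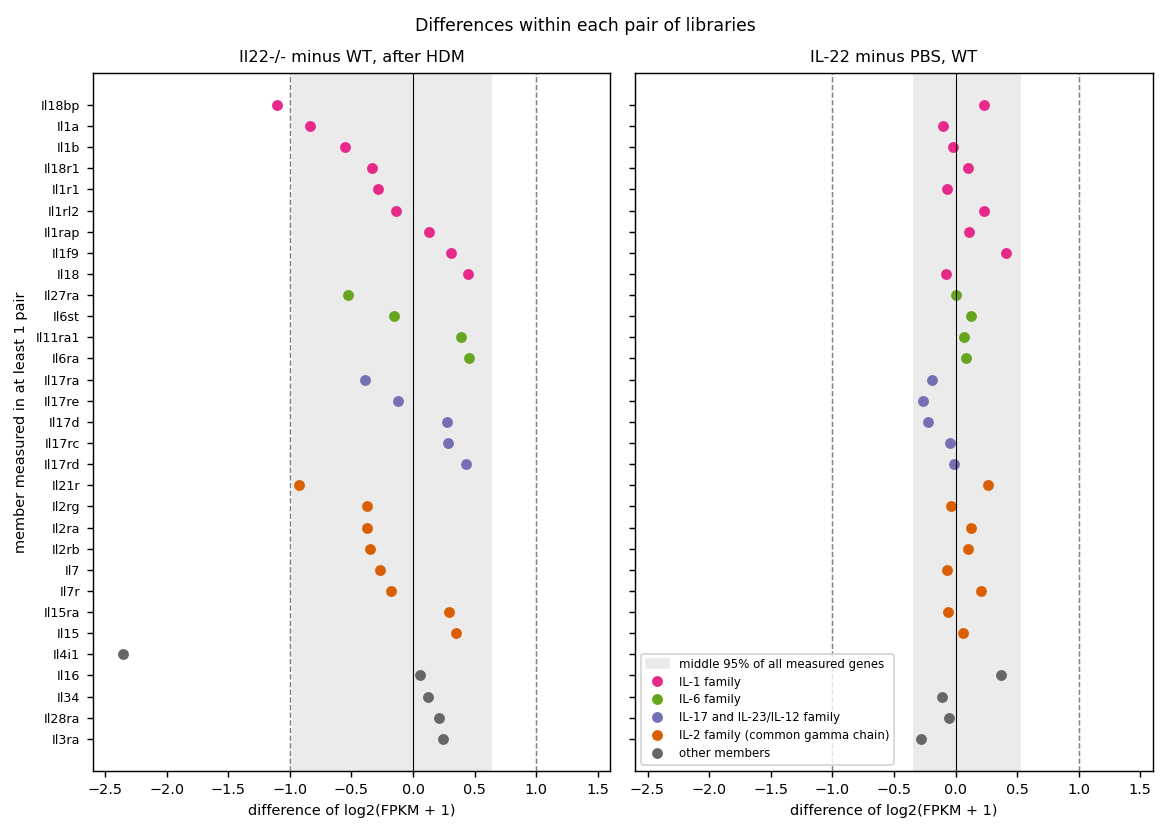
Differences of log2(FPKM + 1) of the 31 members measured in at least 1 pair, by family, with Il22-/- minus wild-type after HDM left and IL-22 minus PBS right. The grey band spans the middle 95% of all measured genes (-0.98 to 0.63 and -0.33 to 0.53) and dashed lines mark the size rule; Il4i1 and Il18bp lie below the band in the HDM pair, and each member lies within it in the other pair.

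Ligands and receptors differed in level. Of 33 ligands 9 were measured in either pair, and of 31 receptors 20. Among all 23284 genes, 13285 were measured in the HDM pair and 13233 in the other. The 13 members listed at 0 in all 4 libraries were 12 ligands and the neuronal receptor Il1rapl2. In the HDM pair 49 of the 66 members had a value above 0, as did 18393 of all 23284 genes. Only 6 members were above 10 FPKM in each library, namely Il6st, Il2rg, Il11ra1, Il18r1, Il18 and Il3ra. Of the 31 members measured in either pair, 9 were highest in knockout and 14 in wild-type lung after HDM, 3 with IL-22 and 5 with PBS. These ranks cross tables that may not share a scale, and Il4i1 was measured only through the wild-type HDM library. The share of all genes highest in each library was not counted, so the ranks do not set the members apart. On the scale of FPKM + 1, 27 of 31 measured members lay within 1.5-fold in the HDM pair, where 90.4% of all measured genes did. On that scale the 30 measured members of the IL-22 and PBS pair lay within 1.5-fold, as did 97.6% of all measured genes. The exceptions in the HDM pair were Il4i1, Il18bp, Il21r and Il1a, each lower in the knockout. Adding 1 shrinks the folds of low genes: on FPKM itself Il27ra, Il1b and Il2ra also differed by over 1.5-fold in the HDM pair, and Il1f9 did in the other.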

How the data were processed

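Lung RNA of 4 groups was sequenced, 1 library each, and groups were taken from the sample titles. The authors deposited FPKM per gene in 2 tables of 23746 rows, 1 per pair of libraries. Build mm10 and the tools Cufflinks 2.2.1, TopHat2 and CASAVA 1.8.2 are listed in the submitters' processing notes. Their settings, the strand of the libraries and any scaling across libraries were not stated in the sources read. Tables were joined on symbol and accession, 25 symbols turned into dates were restored, and rows of a symbol were added. Coordinates are of GENCODE M21, found by accession or symbol.

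Members and lists were chosen with earlier results of these data known. Full values were planned for members called, for the 4 of highest mean FPKM in each family and for the 2 with the largest differences each way, and genes that are no members come from lists of pathway genes (the 3 largest differences each way), cell markers or overlaps. Protein sequences were not used here. No test is possible with 1 library per group. Reads were estimated as FPKM times the transcript length less 200 bases, divided by that product at 1 read, which is the most frequent low step in a library. Over genes with 1 accession, 62.8% of low values came within 0.1 of a whole read. Ratios of rounded reads have exact Clopper-Pearson 95% intervals, for counting error only, and reads without molecular identifiers need not be separate molecules. The calls and the recovery of depth were tested on simulated data. Those data took no bases off the transcript length, so they could not test the 200 bases taken off here. Alternatives changed the pseudocount to 0.1, scaled libraries to an equal sum or by their median ratio, dropped the filter or set it to a mean of 5 FPKM, called at 1.5-fold, or took the highest row of each symbol. The work was done in Python 3.11.15 (scipy 1.17.1, pandas 2.3.3, numpy 2.4.6; figures, matplotlib 3.10.9).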

Additional observations from a re-analysis of the deposited data

How the results depend on the processing

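Il4i1 and Il18bp stayed lower in the knockout HDM library under both scalings, the pseudocount of 0.1, no filter, the 1.5-fold rule and the highest row of each symbol. With a mean of at least 5 FPKM, 1 member remained called, Il18bp, since Il4i1 fell under that filter. The count was 4 with the pseudocount of 0.1 and 4 with the 1.5-fold rule, by the addition of Il1a and Il21r, where 4.66% and 9.64% of all measured genes were called. With no filter Il6 joined (-1.25). In the IL-22 and PBS pair the count was 0 in each setting. Family medians counted as moved at a change of 0.1. In the HDM pair the IL-6 family median was -0.11 with no filter and 0.39 at 5 FPKM, the IL-17 and IL-23/IL-12 median -0.0184 and -0.12, and the IL-2 median -0.18 at 5 FPKM. In the other pair the IL-1 median was 0.0037 under median-ratio scaling, the IL-17 and IL-23/IL-12 median -0.046 with no filter, and the IL-2 median -0.0496 at 5 FPKM. The filters change which genes enter these medians; the cause of other shifts was not tested. No paired analysis was possible because each group has 1 library. Of 33 ligands 12 had no read in any library, so a difference in them was not detectable at this depth.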

Other observations

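Several members lie side by side in the genome. On chromosome 1 the receptor genes Il1r1, Il1rl2, Il18r1 and Il18rap stand between 40225080 and 40551705 of mm10. Their differences in the HDM pair were -0.28, -0.14, -0.33 and 0.22, and in the IL-22 and PBS pair -0.07, 0.23, 0.10 and 0.09, so no call was made in the cluster, though their levels ranged from under 2 to over 30 FPKM. On chromosome 2 the IL-36 and related genes Il1f8, Il1f9, Il1f6, Il1f5 and Il1f10 stand between 24153161 and 24293820, and of these Il1f9 alone had a value above 0. Il24, Il20 and Il19, relatives of IL-10, stand between 130882074 and 130940115 on chromosome 1, and an estimated 1 read of Il24 in the PBS library was the only signal of the cluster. Their receptor chain Il20rb was nonetheless at 0.739 and 0.685 FPKM in the knockout and wild-type HDM libraries and at 0.592 and 0.570 FPKM with IL-22 and PBS.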
